A study of Mus musculus with 2 samples.

Results

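Of 713 sequenced nuclei from lumbar-projecting neurons of the mouse hindbrain, 61 carried transcripts of the GABA pathway but at most 1 transcript of Slc6a5, the plasma membrane glycine transporter that marks glycinergic neurons. They are called Slc6a5-low nuclei here. Members were chosen by raw UMIs (unique molecular identifiers, the counted transcripts) of each nucleus. Gad1, Gad2, Slc32a1 and Slc6a5 had to give at least 75% of 3 or more UMIs of these 4 genes plus Slc17a6, Slc17a7 and Slc17a8. Slc6a5 had to be at 0 or 1 UMI, Tph2 under 5 UMIs, and Alb, Cps1 and Apob together under 20 UMIs. The comparison class, Slc6a5-positive nuclei, met the same conditions but had 2 or more Slc6a5 UMIs, and counted 98.

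Both libraries came from TRAP2 mice, a strain that marks neurons active in a time window, aged 8 to 12 weeks. All mice had received AAV-retro-H2B-GFP in the lumbar spinal cord, which labels the nuclei of neurons whose axons reach it. One library was made after a hot water bath and the other in the condition labelled SNI with brush, each from hindbrains pooled within a treatment, so the number of animals behind each is not given and neither treatment has a replicate. The tissue reached from about -7.3 to -5.2 mm relative to bregma, and nuclei were sorted by fluorescence before droplet capture, which measures nuclear RNA only.

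GABA is made from glutamate by the 2 decarboxylases encoded by Gad1 and Gad2, and is loaded into vesicles by the transporter encoded by Slc32a1, which also loads glycine. Glycinergic neurons take up glycine through the product of Slc6a5, and many hindbrain inhibitory neurons hold both transmitters. Descending inhibitory neurons of the medulla and pons reach the spinal dorsal and ventral horn, where they act on sensory and motor circuits.

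The hot water bath library gave 36 Slc6a5-low nuclei of 425, a share of 8.47% (exact Clopper-Pearson 95% interval 6.003% to 11.5%). The SNI with brush library gave 25 of 288, a share of 8.68% (5.70% to 12.5%). The shares of all nuclei were thus close, whereas Slc6a5-positive nuclei numbered 20 and 78. Of all inhibitory nuclei, 64.3% (50.4% to 76.6%) were Slc6a5-low in the hot water bath library and 24.3% (16.4% to 33.7%) in its SNI with brush counterpart. With 1 library per treatment these shares describe 2 pools, and the intervals cover counting error only. When each nucleus was first thinned to 10000 UMIs, 42 of 425 and 48 of 286 nuclei met the rule, or 9.88% and 16.8%. They made up 82.4% and 49.5% of the inhibitory nuclei, with 9 and 49 Slc6a5-positive nuclei left. The share of inhibitory nuclei thus moved with depth in both libraries. The share of all nuclei left its interval in the SNI with brush library only.

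The values the rule used are given as a description. In the hot water bath library 35 members had no Slc6a5 UMI and 1 had a single one. In the SNI with brush library 19 had none and 6 had 1. Just outside the limit, no hot water bath nucleus had 2 Slc6a5 UMIs, 3 had 3 and 4 had 4, and in the SNI with brush library 6 had 2, 2 had 3 and 7 had 4. Slc6a5 UMIs also occurred where the gene should be absent: 18 of 253 glutamatergic nuclei of the hot water bath library and 17 of 123 of the SNI with brush library had at least 1 Slc6a5 UMI, and at most 2 and 4, at median depths of 38997 and 37372 UMIs. Just under the 75% limit, with a share of 50% to 75%, lay 12 and 6 nuclei, and 6 and 4 members lay between 75% and 85%. For 22 and 17 members all transmitter UMIs were of the inhibitory genes.

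**Figure D1:**
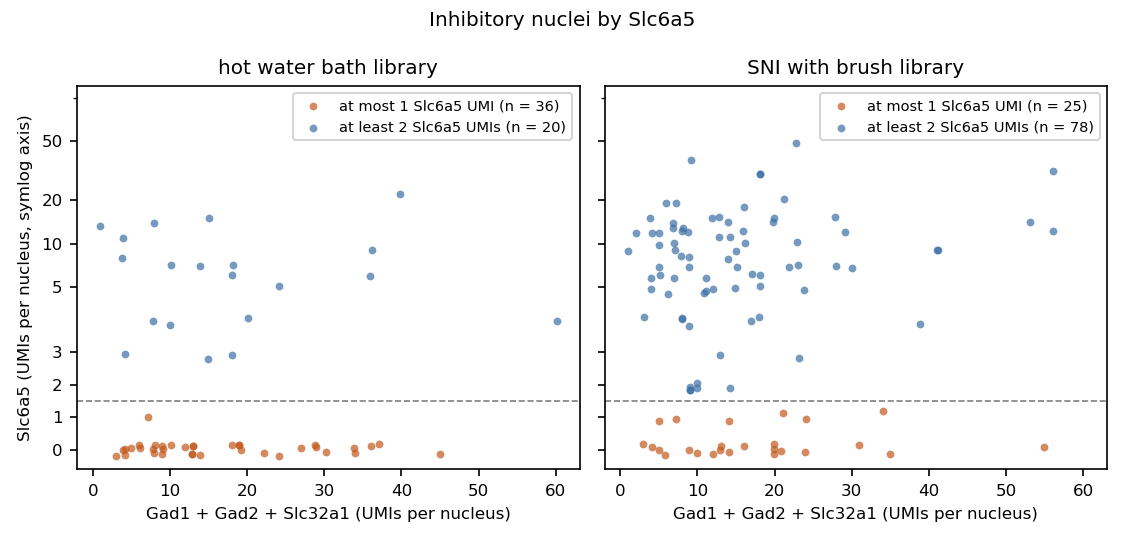
Slc6a5 UMIs (vertical symlog axis) against the summed UMIs of Gad1, Gad2 and Slc32a1 (horizontal axis) in each inhibitory nucleus, 1 panel per library; points are shifted slightly to separate them and the dashed line is the rule's limit. The 36 and 25 Slc6a5-low nuclei sit at 0 or 1, and few Slc6a5-positive nuclei lie just above the line.

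The name GABAergic held for part of these nuclei only. Gad2 was present in all 61. Gad1 was found in 20 of 36 and 20 of 25 members. Slc32a1, needed to load vesicles with GABA, had a UMI in 19 of 36 members of the hot water bath library and in 21 of 25 of the SNI with brush library. In Slc6a5-positive nuclei Slc32a1 was found in 18 of 20 and 77 of 78, and in glutamatergic nuclei, which should lack it, in 10 of 253 and 12 of 123. Among Gad1, Gad2 and Slc32a1, Gad2 was the only gene with a UMI in 11 and 3 members, and in none of the Slc6a5-positive nuclei. All 3 genes were present in 14 and 19 members.

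As levels, Gad2 stood at 376 CPM (UMIs per 1000000 UMIs of the summed nuclei) in members of the hot water bath library and at 376 CPM in those of the SNI with brush library, against 243 CPM and 174 CPM in Slc6a5-positive nuclei. Gad1 stood at 67.3 CPM and 156 CPM, against 136 CPM and 91.4 CPM. Slc32a1 stood at 43.0 CPM (exact Poisson 95% interval 32.2 to 56.3) and 163 CPM (133 to 197), against 104 CPM and 134 CPM. Of the 4 sums, Slc32a1 was lowest in members of the hot water bath library. After thinning to 10000 UMIs it was found in 9 of 36 and 19 of 24 members, against 10 of 20 and 60 of 78 Slc6a5-positive nuclei. Because of this split the nuclei are named by the rule below.

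Depth and the markers of other cells bear on what follows. Members had medians of 30683 and 19630 UMIs per nucleus and Slc6a5-positive nuclei 35323 and 33032, and the 4 sums held 1232426, 627015, 751584 and 2996695 UMIs. The mitochondrial share had medians of 0.0751% and 0.456% in members, against 0.0861% and 0.361%. Neuronal genes were present throughout, with Snap25, Map2 and Meg3 in 61 of 61 members and Rbfox3 in 57. No cell barcode was shared between the libraries, and of the 5 nuclei called as doublets none was a member. Oligodendrocyte markers summed to 136 CPM and 354 CPM in members (9 genes, none at 0) and to 116 CPM and 206 CPM in Slc6a5-positive nuclei, and microglial markers (6 genes, 2 and 1 at 0) to 109.5 CPM and 459 CPM against 141 CPM and 307 CPM. Astrocyte markers stayed under 100 CPM and endothelial markers under 10 CPM in all 4 sums. Liver markers summed to 7.30 CPM and 321 CPM in members and 6.65 CPM and 257 CPM in the other class, almost all from Ttr, with Alb, Cps1 and Apob limited by the rule. The part of these other transcripts in the results below was not tested.

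The first comparison asked which genes distinguish inhibitory descending neurons with little glycine transporter RNA from those that carry it. UMIs were summed per class and library, and edgeR's quasi-likelihood test was run on the 4 sums with the library as a block. Of 10421 genes tested, 49 (0.47%) were higher and 48 (0.461%) lower in Slc6a5-low nuclei at an adjusted p (Benjamini-Hochberg over all genes tested) under 0.05. One of the lower calls is Slc6a5, on which the classes were split, and is no result. Of the 97, the direction was the same in both libraries for 96, and 76 also differed at least 2-fold with an interval clear of 0 in each library. A rule without the model, at least 2-fold with an interval clear of 0 in both libraries, named 82 genes higher (0.787%) and 71 lower (0.681%). The test has 1 residual degree of freedom, and its count depended strongly on the setting: without the library as a block no gene was called in either direction (405 had an unadjusted p under 0.05), DESeq2 called 8 and 6 (of the 33 called genes that the naming rule took, only Kcnq5, Lamp5 and Hs6st3 were among them), and leaving out the 15 members with a Gcg UMI left 0 higher and 3 lower. The named genes among the 97 kept their direction under each setting in which they were tested. Fold changes below stand beside the values of both libraries. The 2 pools differ in treatment as well as being the test's only replicates.

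**Figure D2:**
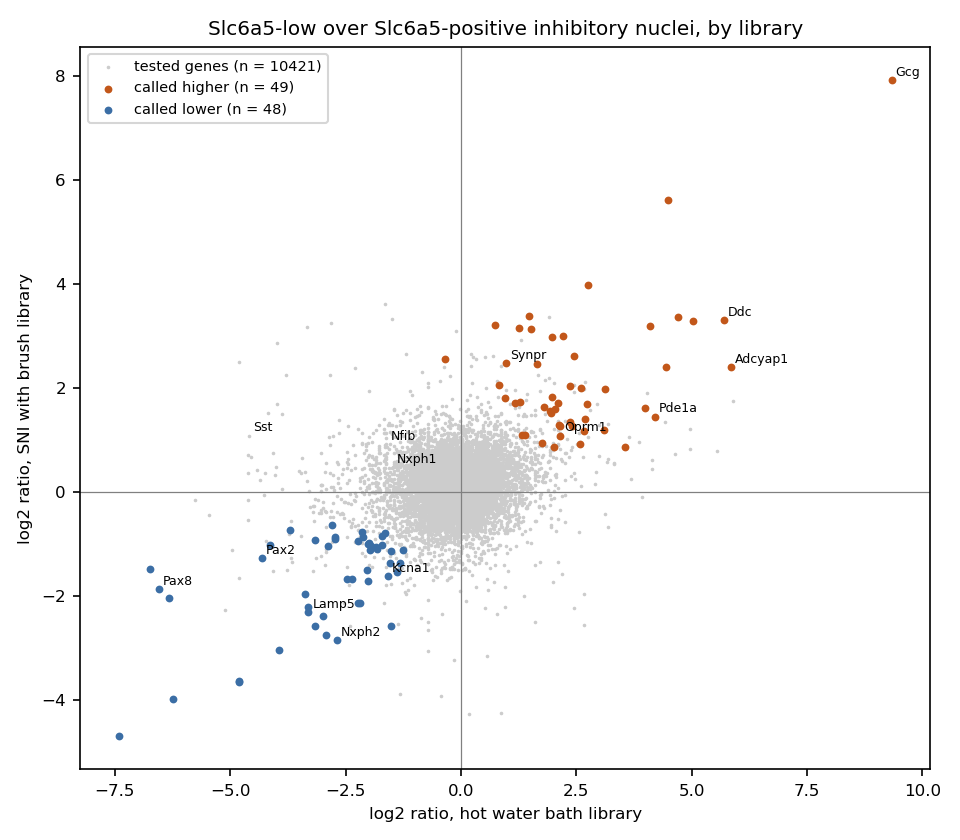
Log2 ratio of Slc6a5-low over Slc6a5-positive nuclei in the hot water bath library (horizontal axis) and the SNI with brush library (vertical axis), 1 point per tested gene, with the 49 genes called higher in orange and the 48 called lower in blue. Called genes lie in the upper right and lower left, except for 1 of 97, while Sst, Nfib and Nxph1 lie in the upper left, where the libraries have opposite signs.

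Genes for second messenger signalling, membrane excitability and secretion were among the 12 named as higher. Pde1a, a calmodulin-dependent cyclic nucleotide phosphodiesterase, stood at 599 CPM and 188 CPM in members of the hot water bath and SNI with brush libraries, against 31.9 CPM and 69.1 CPM in Slc6a5-positive nuclei. Both member sums lay above both sums of the other class (log2 fold change 2.71 ± 0.49 SE, edgeR adjusted p = 0.0128). A Pde1a UMI was found in 32 of 36 and 14 of 25 members, against 7 of 20 and 29 of 78. Per nucleus the median was 13.5 and 2 Pde1a UMIs in members and 0 in both sets of Slc6a5-positive nuclei.

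Kcnq5, a subunit of the M-type potassium channel that restrains repetitive firing, stood at 2149 CPM and 585 CPM, against 495 CPM and 239 CPM (log2 fold change 1.72 ± 0.35, edgeR adjusted p = 0.0257). Its median per nucleus was 905 CPM and 360 CPM in members, and 168 CPM and 68.7 CPM in Slc6a5-positive nuclei. The member sums again lay above both others, although the SNI with brush members were near the hot water bath sum of the other class. A high level was not particular to members. Kcnq5 stood at 927 CPM and 718 CPM in glutamatergic nuclei. In nuclei with 5 or more Tph2 UMIs (31 and 4) it stood at 2577 CPM and 509 CPM.

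Oprm1, the mu opioid receptor through which morphine acts, stood at 257 CPM and 121 CPM in members and at 57.2 CPM and 57.4 CPM in Slc6a5-positive nuclei (log2 fold change 1.62 ± 0.30, edgeR adjusted p = 0.0166). The gene lies at chr10:6758506-7038198 on the plus strand of mm10. Oprm1 was found in 32 of 36 and 15 of 25 members, against 14 of 20 and 51 of 78. Glutamatergic nuclei of the 2 libraries stood at 61.6 CPM and 61.5 CPM, near the Slc6a5-positive level. Nuclei with 5 or more Tph2 UMIs (31 and 4) stood between the 2 inhibitory classes, at 99.0 CPM and 83.8 CPM. Of the other 3 opioid receptors none was called: Oprk1 stood at 4.06 CPM and 30.3 CPM against 9.31 CPM and 17.0 CPM, Oprd1 at 6.49 CPM and 4.78 CPM against 15.97 CPM and 18.7 CPM, and Oprl1 at 13.8 CPM and 25.5 CPM against 19.96 CPM and 22.4 CPM. So 1 of 4 opioid receptor genes was called, higher, beside 0.47% of all genes tested.

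Atp2b4, a plasma membrane calcium pump, had close values in the 2 member sums, 136 CPM and 126 CPM, against 34.6 CPM and 44.0 CPM (log2 fold change 1.72 ± 0.27, edgeR adjusted p = 0.00394). Synpr, encoding the synaptic vesicle protein synaptoporin, stood at 122 CPM and 102 CPM against 61.2 CPM and 18.4 CPM (1.73 ± 0.31, edgeR adjusted p = 0.0128). Baiap3, which acts in dense-core vesicle trafficking, stood at 131 CPM and 57.4 CPM against 14.6 CPM and 25.4 CPM (2.01 ± 0.38, edgeR adjusted p = 0.0172). Rgs9, a regulator of G protein signalling, stood at 105 CPM and 20.7 CPM against 15.97 CPM and 9.34 CPM. Unc13b, a vesicle priming factor, stood at 153 CPM and 78.1 CPM against 37.3 CPM and 43.4 CPM. For all 5 genes both member sums were above both sums of the other class. In the 31 and 4 nuclei with 5 or more Tph2 UMIs, Baiap3 stood at 140 CPM and 83.8 CPM and Rgs9 at 84.0 CPM and 102 CPM. Atp2b4 stood at 48.0 CPM and 23.9 CPM there, and Synpr at 3.75 CPM and 83.8 CPM.

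The remaining higher genes were Zdhhc14, a palmitoyltransferase, St8sia4, which builds polysialic acid, the adhesion gene Nectin3, and Ildr2. Zdhhc14 stood at 400.0 CPM and 129 CPM against 66.5 CPM and 68.1 CPM. Without the members that carried a Gcg UMI its log2 fold change was 0.82 instead of 1.75, and those of Baiap3 and Rgs9 were 1.35 and 1.31 instead of 2.01 for each. St8sia4 in SNI with brush members, at 55.8 CPM, was level with the hot water bath sum of the other class at 55.9 CPM, so its groups overlapped.

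**Figure D3:**
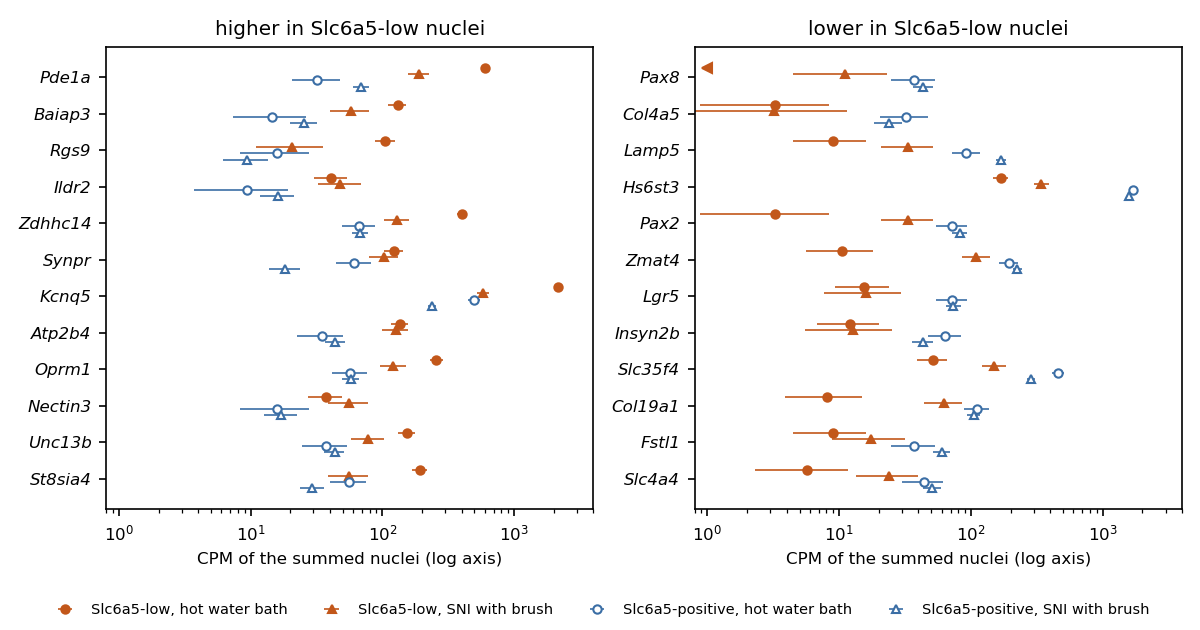
CPM of the summed nuclei on a log axis for the 12 genes named as higher (left) and the 12 named as lower (right), with exact Poisson 95% intervals for counting error; filled orange symbols are Slc6a5-low nuclei and open blue symbols Slc6a5-positive nuclei, circles the hot water bath and triangles the SNI with brush library, and the arrowhead marks a count of 0. For Atp2b4 the 2 orange symbols coincide near 130 CPM, whereas for Pax8, Pax2 and Zmat4 they lie far apart.

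Genes lower in Slc6a5-low nuclei included transcription factors of the inhibitory lineage. Pax8 and Pax2 encode paired-box factors that specify inhibitory interneurons of the spinal cord and hindbrain. Pax2 stood at 3.25 CPM and 33.5 CPM in members, against 71.8 CPM and 82.4 CPM (log2 fold change -2.38 ± 0.46, edgeR adjusted p = 0.0183), and was found in 3 of 36 and 7 of 25 members but in 15 of 20 and 49 of 78 Slc6a5-positive nuclei. Pax8 had no UMI in the 36 members of the hot water bath library, against 28 UMIs in 11 of 20 Slc6a5-positive nuclei, which is at least 15.3-fold lower taking 3 counts as the limit that a count of 0 allows in that sum. In the SNI with brush library it stood at 11.2 CPM against 43.4 CPM (edgeR adjusted p = 0.0203). In draws of 10000 UMIs per nucleus the fitted log2 fold change of Pax8 was -1.60 instead of -3.23. Both genes were also low outside the inhibitory classes. Glutamatergic nuclei stood at 0.49 CPM and 3.69 CPM for Pax2 and at 0.098 CPM and 0.35 CPM for Pax8. Nuclei with 5 or more Tph2 UMIs had no UMI of either gene.

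Of 46 listed inhibitory lineage factors, 13 were tested, with a median log2 fold change of -0.03 beside 0.0064 over all genes tested. One (1) was called higher and 2 lower, beside 0.47% and 0.461% of all genes tested. The higher one was Gata3, a zinc finger factor of GABAergic neurons of the V2b type and of serotonergic neurons. It stood at 19.5 CPM and 59.0 CPM against 3.99 CPM and 18.0 CPM (log2 fold change 1.81 ± 0.39, edgeR adjusted p = 0.0342), though 1 nucleus each gave 29.2% of its UMIs in hot water bath members and 45.9% in SNI with brush members. Gata2, its partner in that lineage, was too low to be tested, at 4.87 CPM and 33.5 CPM against 1.33 CPM and 4.00 CPM. The abundant homeodomain genes Zfhx3, Zfhx4 and Meis2 did not pass the test. Zfhx3 stood at 873 CPM and 372 CPM, against 737 CPM and 387 CPM.

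Lamp5 and Hs6st3 gave the smallest adjusted p-values among the genes named as lower. Lamp5, a membrane protein of some GABAergic nerve endings, stood at 8.93 CPM and 33.5 CPM against 91.8 CPM and 171 CPM (log2 fold change -2.76 ± 0.31, edgeR adjusted p = 0.000228). Lamp5 was found in 9 of 36 and 9 of 25 members, against 17 of 20 and 75 of 78 Slc6a5-positive nuclei. Hs6st3, an enzyme that adds sulfate to heparan chains, stood at 168 CPM and 343 CPM against 1684 CPM and 1597 CPM (log2 fold change -2.76 ± 0.37, edgeR adjusted p = 0.001). The median Hs6st3 count per nucleus was 0 and 4 UMIs in members and 56.5 and 42 UMIs in the others. For both genes the member sums lay well below both sums of the other class. Lamp5 lies at chr2:136052239-136069917 (plus strand) and Hs6st3 at chr14:119138341-119869815 (plus strand) of mm10.

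Lgr5, a receptor for R-spondins that enhances Wnt signalling, had nearly equal values in the member sums, 15.4 CPM and 15.9 CPM, against 71.8 CPM and 73.7 CPM (log2 fold change -2.19 ± 0.32, edgeR adjusted p = 0.00282). Extracellular matrix genes were 2 of the other named ones: the collagen gene Col4a5 stood at 3.25 CPM and 3.19 CPM against 31.9 CPM and 23.7 CPM, and Col19a1 at 8.11 CPM and 62.2 CPM against 110 CPM and 105 CPM. Insyn2b, Fstl1, the bicarbonate transporter gene Slc4a4, Slc35f4 and Zmat4 completed the 12. The values of Zmat4 differed between the libraries, with a log2 ratio of -4.14 (95% interval -5.14 to -3.37) in the hot water bath library and -1.02 (-1.41 to -0.67) in its SNI with brush counterpart.

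Of 23 listed genes that serve fast firing and large axons, 3 were called, all lower, beside 0.461% of all genes tested called lower. Kcna1, a low-threshold potassium channel of axons, stood at 37.3 CPM and 57.4 CPM against 113 CPM and 180 CPM, with log2 ratios of -1.59 and -1.63 in the 2 libraries (edgeR adjusted p = 0.0057). In hot water bath Slc6a5-positive nuclei 1 nucleus gave 25.9% of the Kcna1 UMIs. Syt2, a calcium sensor for fast transmitter release, stood at 89.3 CPM and 126 CPM against 214 CPM and 275 CPM (edgeR adjusted p = 0.0394). The list's median log2 fold change was -0.66, beside 0.0064 over all genes tested. The neurofilament genes Nefh (17.9 CPM and 31.9 CPM against 41.2 CPM and 76.8 CPM) and Nefm (75.5 CPM and 112 CPM against 141 CPM and 182 CPM) did not pass. Kcnc2 went the other way without passing, at 761 CPM and 515 CPM against 471 CPM and 339 CPM.

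Of 27 listed genes of GABA and glycine receptors and their scaffold, 22 were tested, with a median log2 fold change of 0.11 beside 0.0064 over all genes. None was called higher and 1 lower, beside 0.47% and 0.461% of all genes tested. That one was Gabra5, which encodes the alpha 5 subunit of mostly extrasynaptic GABA-A receptors, at 31.6 CPM and 28.7 CPM against 79.8 CPM and 76.4 CPM (log2 fold change -1.35 ± 0.29, edgeR adjusted p = 0.032). In hot water bath Slc6a5-positive nuclei 1 nucleus gave 38.3% of the Gabra5 UMIs. In draws of 10000 UMIs per nucleus the fold change of Gabra5 was -0.49. Glra1, the main glycine receptor subunit of the adult hindbrain, stood at 99.0 CPM and 131 CPM against 204 CPM and 259 CPM without passing (edgeR adjusted p = 0.096).

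None of the 8 tested genes of GABA handling outside the rule was called (median log2 fold change 0.11). None of 3 tested genes of glycine handling was called either, and Slc6a9, the other glycine transporter gene, stood at 6.49 CPM and 12.8 CPM against 9.31 CPM and 15.4 CPM. Over the lists of ionotropic and metabotropic glutamate receptors (22 tested), monoamine and acetylcholine receptors (13), peptide receptors (8), immediate early genes (6) and Hox genes (7), no gene was called in either direction. Over all genes tested the shares called were also small, 0.47% higher and 0.461% lower. Fos, the immediate early gene whose promoter drives the TRAP2 allele, had 13 UMIs in 12 members.

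Neuropeptide genes gave 2 calls higher and 1 lower among 11 tested, beside 0.47% and 0.461% of all genes tested. Their median log2 fold change was -0.50, beside 0.0064 over all genes tested. Gcg, which encodes preproglucagon and marks glucagon-like peptide neurons of the caudal medulla, had 528 UMIs (428 CPM) in 14 of 36 hot water bath members and no UMI in the 20 Slc6a5-positive nuclei, which is at least 107-fold higher taking 3 counts for the class with none. In the SNI with brush library 25 Gcg UMIs came from 1 member and the other class had none. Adcyap1, the gene of the peptide PACAP, stood at 38.1 CPM and 15.9 CPM against 0 and 3.003 CPM (edgeR adjusted p = 0.0257). Of its 10 UMIs in SNI with brush members, 4 came from 1 nucleus. Nxph2, a ligand of neurexins, was lower, at 5.68 CPM and 4.78 CPM against 38.6 CPM and 40.0 CPM (edgeR adjusted p = 0.00478), though 1 nucleus each gave 55.2% and 32.5% of its UMIs in Slc6a5-positive nuclei, of which 5 of 20 after the hot water bath had any. Penk, the enkephalin precursor gene, stood at 123 CPM and 86.1 CPM against 74.5 CPM and 47.4 CPM and did not pass (log2 fold change 0.81 ± 0.25, edgeR adjusted p = 0.192). Sst, the somatostatin gene, had opposite signs in the 2 libraries, 8.93 CPM against 225 CPM after the hot water bath and 266 CPM against 126 CPM in SNI with brush.

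The rule kept nuclei with strong Tph2 expression out of the class, so genes of the serotonergic list other than Tph2 were examined. Ddc, the decarboxylase shared by serotonin and catecholamine synthesis, was called higher, at 34.1 CPM and 20.7 CPM against 0 and 2.00 CPM (edgeR adjusted p = 0.00896), although 1 nucleus each gave 59.5% of its UMIs in hot water bath members and 53.8% in SNI with brush members. With Gata3, 2 of the 3 tested genes of this list of 11 were called, both higher, beside 0.47% of all genes tested. Gata3 is also in the list of inhibitory lineage factors, so its call is counted in both lists. Slc18a2, the vesicular monoamine transporter gene, stood at 46.3 CPM and 22.3 CPM against 3.99 CPM and 15.7 CPM and did not pass, with 36 of its 57 UMIs in hot water bath members from 1 nucleus. The list summed to 187 CPM and 180 CPM in members and to 19.96 CPM and 47.1 CPM in the other class. The 2 member sums were made up differently. In hot water bath members the largest parts were Lmx1b at 63.3 CPM, Slc18a2 and Ddc. In SNI with brush members they were Gata3 at 59.0 CPM and Gata2 at 33.5 CPM, with Lmx1b at 7.97 CPM. Tph2 was limited by the rule, with 4 UMIs in 2 hot water bath members and 2 UMIs in 2 SNI with brush members. Fev had 2 UMIs in members and was low also in the hot water bath nuclei with 5 or more Tph2 UMIs, with 6 UMIs in 4 of 31. Slc6a4 had 7 UMIs in 1 member, against 342 UMIs in 17 of those 31. In nuclei with 5 or more Tph2 UMIs, Ddc stood at 968 CPM and 1700 CPM and Slc18a2 at 708 CPM and 850 CPM.

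A few called genes outside the naming rule were singled out with their values known. Cfap54 stood at 148 CPM and 116 CPM in members (edgeR adjusted p = 1.89e-05), with UMIs in 23 of 36 and 13 of 25, but 1 nucleus gave 72.6% of its UMIs in SNI with brush members. For Drc1, Dnah9, Cfap44 and Dnah7a, called higher as well, 1 nucleus gave 84.0%, 67.5%, 86.05% and 92.3% of the UMIs there. Foxj1, the regulator of motile cilia, had 13 UMIs in 6 members, and 1 member held all 26 UMIs of Ccdc153, an ependymal gene.

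The members did not form 1 group. Leiden clustering of the 61 nuclei, with each gene centred within its library, gave 4 clusters of 24, 19, 16 and 2 nuclei, which are described by their leading genes, without a test, because those genes formed them. The libraries were unevenly spread over the clusters: hot water bath members numbered 7, 15, 14 and 0 in clusters 1 to 4, and SNI with brush members 17, 4, 2 and 2. A resolution of 0.5 gave 3 clusters and one of 2.0 gave 10.

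Cluster 1 had more Slc32a1 and Gad1 than clusters 2 and 3. Each was found in 20 of its 24 nuclei, at 158 CPM and 169 CPM, against 64.5 CPM and 87.0 CPM in cluster 2. The cluster also held 5 Slc6a5 UMIs in 5 nuclei and 8 Slc17a6 UMIs in 5, against 1 UMI of each gene in cluster 2. Its leading genes were Sema5a, the kainate receptor gene Grik1, the muscarinic receptor gene Chrm3, Stxbp6, Spon1 and Zfpm2, of which Sema5a stood at 135 CPM against 4.06 CPM in the other clusters and Grik1 at 447 CPM against 20.3 CPM. Inhibitory lineage factors were spread within it: Tal1, Lhx1 and Lhx5 were each found in 9 nuclei, Gata3 in 9 and Foxp2 in 5. The peptide genes Pnoc and Npy were found in 8 and 6 nuclei. In glutamatergic nuclei Grik1 stood at 562 CPM and 530 CPM and Chrm3 at 484 CPM and 285 CPM.

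Cluster 2 had Gad2 at 508 CPM, Slc32a1 in 16 of 19 nuclei and Gad1 in 15. It was led by Cpa6, a carboxypeptidase gene, with Tns3, the Notch pathway gene Dlk1, Il1rapl2, Lmx1b and Cdh4. Cpa6 stood at 1331 CPM against 32.3 CPM in the other clusters, and Lmx1b, a homeodomain factor needed by serotonergic neurons, at 104 CPM in 16 nuclei against 7.85 CPM. Most of these UMIs came from the hot water bath nuclei of the cluster. Its 4 SNI with brush nuclei gave 19 of 949 Cpa6 UMIs and 3 of 74 Lmx1b UMIs. They gave 138 of 2484 Kcnq5 UMIs and 0 of 31 Ddc UMIs, beside 74 of 362 Gad2 UMIs. Nkx2-2, a factor of ventral hindbrain progenitors, was found in 10 of the 19 nuclei and in none of the other 42. Slc18a2 was found in 10 nuclei, with 36 of its 53 UMIs from 1, and Gata3 in 10. Of the Gata3 UMIs of hot water bath members, 18 of 24 lay in cluster 2. Of those of SNI with brush members, 29 of 37 lay in cluster 1. Ddc was found in 5 nuclei, with 25 of its 31 UMIs from 1. Tph2, limited by the rule, had 4 UMIs in 2 nuclei, Fev 2 UMIs in 2 and Slc6a4 7 UMIs in 1. In the serotonergic class of the hot water bath library Cpa6 stood at 1165 CPM, Lmx1b at 152 CPM and Dlk1 at 284 CPM, against 15.97 CPM, 0 and 2.66 CPM in its Slc6a5-positive nuclei. In the 4 serotonergic nuclei of the SNI with brush library they stood at 150 CPM, 197 CPM and 269 CPM. Il1rapl2 and Cdh4 stood at 2052 CPM and 571 CPM in the serotonergic class of the hot water bath library, but at 5.98 CPM and 71.8 CPM in those 4 nuclei. Kcnq5 was concentrated here, with 3484 CPM against 388 CPM in cluster 1 and 513 CPM in cluster 3.

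Cluster 3 went against the label. Slc32a1 was found in 2 of its 16 nuclei and Gad1 in 3, while Slc17a6, the vesicular glutamate transporter gene, had 16 UMIs in 11 of them (32.7 CPM). Gad2 was present in all 16 at 264 CPM. Gcg led the cluster, with all 553 Gcg UMIs of the members in 15 of its nuclei (1131 CPM) and none in the other clusters. Prlr, the prolactin receptor gene, followed at 642 CPM against 5.84 CPM, with Svep1, the oestrogen receptor gene Esr1 (305 CPM in 15 nuclei), Sulf1 and Tmem200a. Lepr, the leptin receptor gene, stood at 149 CPM in 15 nuclei and Adcyap1 at 92.1 CPM in 14. Preproglucagon neurons of the caudal brainstem are known as glutamatergic and leptin-sensitive. The cluster is left without a name, and Gad2 was the only one of the 3 GABA genes in most of its nuclei.

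Several genes of the class comparison had their highest level among the 3 large clusters in cluster 3. Oprm1 stood at 454 CPM there, against 105 CPM in cluster 1 and 137 CPM in cluster 2. Zdhhc14 stood at 841 CPM against 108 CPM and 130 CPM, Pde1a at 1021 CPM against 196 CPM and 297 CPM, and Rgs9 at 196 CPM against 27.1 CPM and 36.5 CPM. Cfap54 was found in 16 of 16 nuclei of cluster 3. Kcna1 and Syt2 were nearly absent there, at 8.18 CPM and 4.09 CPM, against 66.8 CPM and 140 CPM in cluster 1. Hs6st3, at 477 CPM, 37.9 CPM and 180 CPM in clusters 1 to 3, lay below the Slc6a5-positive level of 1684 CPM and 1597 CPM in all 3. Without the 15 members that carried Gcg, the log2 fold change of Oprm1 was 1.10, of Pde1a 2.22, of Kcna1 -1.32 and of Hs6st3 -2.77, none of them called (edgeR adjusted p from 0.12 to 0.32).

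Nuclei with Gcg also occurred outside the class. In the hot water bath library 16 of the 85 nuclei with mixed or few transmitter UMIs held 565 Gcg UMIs, beside 58 UMIs of vesicular glutamate transporters and 72 of Gad2. Among glutamatergic nuclei 4 of 253 had 1 Gcg UMI each. In the SNI with brush library 1 mixed nucleus had 52 Gcg UMIs. The rule thus split the Gcg nuclei between the members and the mixed nuclei. Gcg lies at chr2:62474530-62483650 on the minus strand of mm10.

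Cluster 4 held 2 nuclei of the SNI with brush library with 142 Sst UMIs between them, 120 in 1, and Slc32a1, Gad1, Pnoc and Pax2 in both. These 2 nuclei gave 142 of the 167 Sst UMIs of SNI with brush members. One nucleus of cluster 3 from the same library held all 43 UMIs of Pkd2l1, a channel gene of cerebrospinal fluid-contacting neurons.

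**Figure D4:**
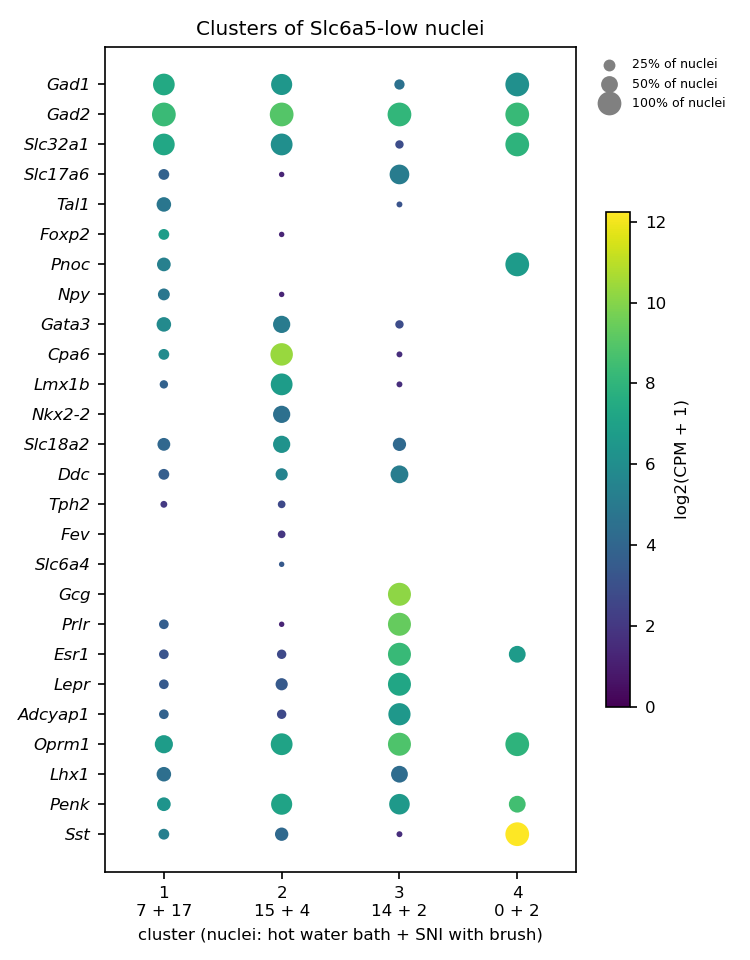
Genes (rows) in the 4 clusters of Slc6a5-low nuclei (columns, with the number of nuclei from each library); the circle's area is the share of the cluster's nuclei with a UMI and its colour log2(CPM + 1) of the summed nuclei. Slc32a1 and Gad1 fade in cluster 3, where Gcg, Prlr, Esr1 and Lepr stand out, while Cpa6, Lmx1b and Nkx2-2 stand out in cluster 2 and Sst in the 2 nuclei of cluster 4.

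The second comparison set members of the SNI with brush library against those of the hot water bath library. With 1 library per treatment there is no test: log2 ratios compare these 2 pools, and their exact intervals cover counting error only. Among 6187 genes with at least 50 UMIs, a difference of 2-fold or more with an interval clear of 0 was found for 913 (14.8%) that were higher in the SNI with brush members and 276 (4.46%) that were lower. The median log2 ratio was 0.12. With size-factor scaling every log2 ratio fell by 0.37, and the counts were 545 higher and 669 lower, so the balance of the 2 directions depends on the scaling.

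The 8 genes that the naming rule took as higher were Ttr, Ndufa3, Ndufb7, Ndufa1, Mt1, Zmat4, Atp5k and Mt3. Ndufa3, Ndufb7 and Ndufa1, subunits of complex I, stood at 5.68 CPM, 8.11 CPM and 8.93 CPM in hot water bath members and at 89.3 CPM, 108 CPM and 105 CPM in SNI with brush members. Atp5k, of the ATP synthase, stood at 17.9 CPM and 182 CPM. Mt1 and Mt3, which bind zinc and copper, stood at 12.2 CPM and 21.9 CPM against 142 CPM and 214 CPM. In Slc6a5-positive nuclei the log2 ratios were 2.97 for Ndufa3, 0.44 (-0.09 to 1.05) for Ndufb7, 1.27 for Ndufa1 and 1.87 for Atp5k, beside 3.89, 3.68, 3.51 and 3.32 in members. Those of Mt1 and Mt3 were 1.89 and 2.08, beside 3.50 and 3.27. The SNI with brush members also had the higher mitochondrial share, 0.456% against 0.0751%, and fewer UMIs per nucleus. Ttr, a transport protein gene of liver and choroid plexus, had the highest log2 ratio of the 8, 5.42 (4.498 to 6.74), and nearly the same one in Slc6a5-positive nuclei, 5.31.

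Of the 8 genes that the rule took as lower, 4 were among the 6 leading genes of cluster 2 or cluster 3, which held few SNI with brush members. Gcg had a log2 ratio of -3.40 (-4.07 to -2.85), Prlr -3.78 (-4.86 to -2.99) and Svep1 -4.15 (-10.1 to -2.18), all 3 cluster 3 genes. Lmx1b of cluster 2 had -2.86 (-4.65 to -1.70), with 78 UMIs in 16 hot water bath members and 5 UMIs in 4 SNI with brush members. Zeb2, a zinc finger factor, stood at 527 CPM and 57.4 CPM, and at 25.5 CPM, 518 CPM and 595 CPM in clusters 1 to 3. In Slc6a5-positive nuclei the ratio of Zeb2 was 0.36 (-0.09 to 0.87). Adamts12, Pdgfd and Ptchd1 completed the 8. A different mix of clusters and a different level within a cluster cannot be told apart in these sums.

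Among transcription factors with enough counts, Nfib was higher in SNI with brush members, 15.4 CPM against 134 CPM (log2 ratio 3.09), and Satb1 19.5 CPM against 73.4 CPM (1.90). Foxp2 stood at 12.2 CPM and 87.7 CPM, but its 15 hot water bath UMIs came from 1 nucleus and 43 of 55 SNI with brush UMIs from 1 nucleus. Meis2, Zfhx3 and Zfhx4 were lower, with ratios of -1.39, -1.23 and -1.29. Among peptides, Cck stood at 8.93 CPM and 115 CPM, with a ratio of 3.63 in members, but 31 of the 72 UMIs of SNI with brush members came from 1 nucleus. Nxph1 stood at 316 CPM and 1292 CPM. Oprm1 had a ratio of -1.08 (-1.47 to -0.72), which was -0.13 without the members carrying Gcg.

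**Figure D5:**
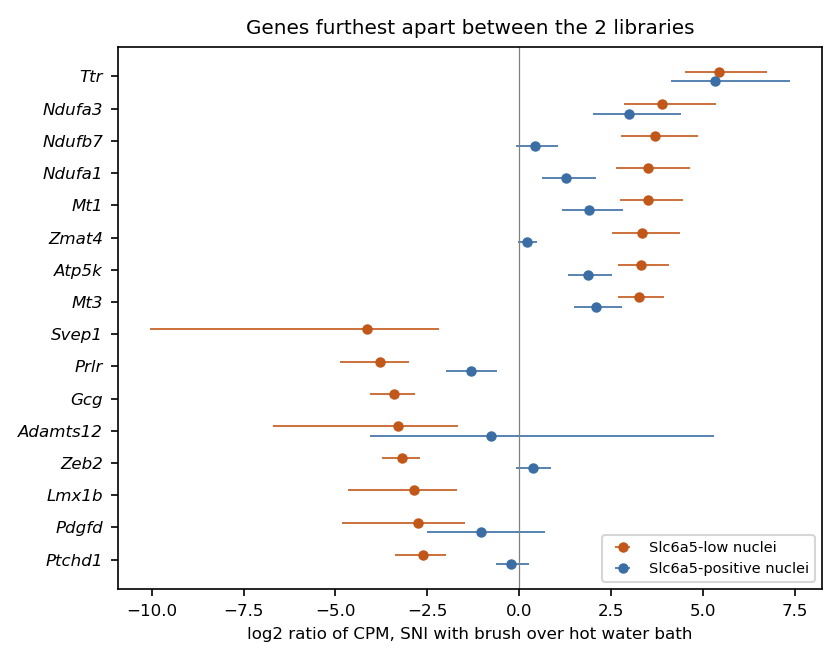
Log2 ratio of CPM, SNI with brush over hot water bath, for the 8 highest and 8 lowest named genes in Slc6a5-low nuclei (orange) and the same genes in Slc6a5-positive nuclei (blue), with exact 95% intervals for counting error; a blue point is left out where a count of 0 leaves its interval without an end. Ttr has nearly the same ratio in both classes, whereas Zmat4 and Zeb2 lie near 0 in Slc6a5-positive nuclei.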

How the data were processed

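Raw UMI counts per gene and nucleus were deposited by the authors as 1 filtered table per library, and were used as deposited. Cell Ranger 5.0, Seurat (no version) and mm10 are named per the submitters' processing notes. The rule for keeping 425 of 723 and 288 of 850 listed barcodes is not stated in the labels used here.

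Counts were summed per class and library. The class contrast used edgeR 4.0.16 (R 4.3.3; TMM scaling, filterByExpr, quasi-likelihood test, library as block, 1 residual degree of freedom, Benjamini-Hochberg adjustment); DESeq2 1.42.0 was an alternative. The 2 classes of a library share its pool, which is where the block comes from. Whether nuclei of a library come from separate animals is not given. The p-values set the class difference against the spread between these 2 pools, with that spread moderated over genes. The median prior degrees of freedom, which edgeR borrows from other genes, were 15.2 beside the 1 residual degree. The p-values cover no spread beyond these 2 pools. Fold changes named by library are log2 ratios of CPM with 0.5 UMI added and exact conditional 95% intervals. Scripts were tested on simulated data. Doublets were called with Scrublet through scanpy 1.11.5 (3 and 2 nuclei) and kept. Clustering used 2000 variable genes, 15 components and 10 neighbours at resolution 1.0. Gene positions are from GENCODE vM21, which held each of the 60 identifiers searched.

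The members and gene lists were chosen with earlier results of these data known. Genes named in the class contrast were called, had the same sign in both libraries, UMIs in at least 10% of nuclei of the higher class and at most 25% of UMIs from 1 nucleus (12 each way). Those of the library contrast needed 50 UMIs and 5 nuclei (8 each way). List members were named where called (4 each way), as were peptides and lineage factors with 100 UMIs. Others, among them the opioid receptors, Slc6a9, Glra1, Nefh, Nefm, Kcnc2, Gata2, Slc18a2, Fos and the cluster genes beyond the 6 leading ones, were chosen after their values were seen. A few tested list members are not reported here.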

Additional observations from a re-analysis of the deposited data

Results flagged for a closer look

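For 4 genes the class contrast had opposite signs in the 2 libraries, each with an interval clear of 0; the difference between the libraries was not tested. Sst had a log2 ratio of Slc6a5-low over Slc6a5-positive nuclei of -4.60 after the hot water bath and 1.08 in SNI with brush nuclei, where 142 of 167 UMIs came from 2 nuclei. Nfib had -1.62 and 0.91, Nxph1 -1.47 and 0.48, and Meis2 0.46 and -0.75.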

How the results depend on the processing

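The class contrast, with 49 genes higher and 48 lower, gave 1 and 4 with Slc6a5 at 0 UMIs, 0 and 2 with at most 0.5% mitochondrial UMIs, 67 and 76 with a 90% share of 6 UMIs, 32 and 40 with Tph2 at 0, 22 and 18 in draws of 10000 UMIs, 195 and 161 without the filter on low counts, 0 and 0 with no replicate block, and 8 and 6 with DESeq2. Alternatives chosen after seeing the data gave 19 and 29 with at least 1 Slc32a1 UMI, 0 and 3 without Gcg nuclei, and 0 and 2 without Gcg and ciliated nuclei. Leaving out doublets changed no count. The prior degrees of freedom that edgeR borrowed from other genes also differed. They were 15.2 in the main fit, 6.14 with Slc6a5 at 0 UMIs, 4.45 with the mitochondrial limit and 26.9 with the 90% share. Genes with an unadjusted edgeR p under 0.05 numbered 916, 834, 841 and 855 in that order. The part of this borrowing in the counts was not tested. No named called gene changed direction under any of these 12 settings in which it was tested. None of the 33 stayed called with no replicate block or with at most 0.5% mitochondrial UMIs. Neither did any without Gcg nuclei (31 tested) or without Gcg and ciliated nuclei (30 tested). With Slc6a5 at 0 UMIs 2 of 33 stayed called, and with DESeq2 3 of 33. Leaving out either library leaves no residual degree of freedom, so those values are ratios with no test. The share in the hot water bath library was 4.47% with at least 1 Slc32a1 UMI, and in the SNI with brush library 16.8% after thinning before the rule. Between libraries, 913 genes higher became 1848 with at least 20 UMIs, 592 with at most 0.5% mitochondrial UMIs and 545 with size factors, and 276 lower became 669 with size factors. The 4 clusters became 10 at resolution 2.0. With 627015 UMIs in the smallest sum, genes with few UMIs could not be compared.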
